A study of Mus musculus with 12 samples.

Results

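The average effect of an endothelial gene deletion on the mouse aortic valve leaflet was measured across all 12 RNA libraries of the series, 6 with the endothelial deletion against 6 without it. The libraries fall into 4 genotype groups of 3: CTRL, ECKO, SMKO and DKO, all from mice of 2 months on a mixed C57BL/6J;129SvEv background. The labels give these codes without the gene and without the Cre drivers. From what is known of the study, the deleted gene was Efemp2, which encodes fibulin-4. ECKO mice lacked it in endothelial cells, SMKO mice in smooth muscle cells, and DKO mice in both types; CTRL mice kept it. The averaged contrast was (ECKO + DKO)/2 − (CTRL + SMKO)/2 on normalised log2 counts, so that each side held the smooth muscle deletion in 3 of its 6 libraries. It is the mean of ECKO − CTRL, made where the smooth muscle gene is intact, and DKO − SMKO, made where it is deleted. The labels assign no animal to a library, so the p-values below measure the spread between libraries, which may be technical in part.

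Valve leaflets are thin sheets of matrix covered on both faces by endothelial cells, with interstitial cells inside that make collagen, proteoglycans and elastic fibres. Endothelial cells sense flow and signal to the interstitial cells through nitric oxide, Notch ligands, natriuretic peptides and growth factors. Fibulin-4 is a secreted glycoprotein that brings tropoelastin and lysyl oxidase together during the assembly of elastic fibres.

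Leaflets were cut by laser microdissection from sections of 20 μm, so each library is a mixture of cell types, and fewer cells of a type cannot be told apart from less RNA per cell. Total counts ran from 207637 to 615665 in the 6 libraries with the endothelial deletion and from 74827 to 576910 in the 6 without it. Of 9 defining endothelial markers, all 9 had counts in each of the 12 libraries, as did all 6 defining interstitial markers. Of 5 defining smooth muscle markers, 2 had counts in each library. Mitochondrially encoded genes took 10.5% to 20.98% of counts with the endothelial deletion and 10.5% to 28.5% without it. Libraries CTRL 3, SMKO 1 and DKO 3 held 28 to 89 Y-linked counts and the others at most 1. Such libraries thus number 2 without the endothelial deletion and 1 with it, and none is an ECKO library. Xist had 0 counts in all 12 libraries, so the sex behind the other libraries cannot be read from these counts. SMKO 2 stood apart from the other SMKO libraries. Its summed level of matricellular genes was 89426 CPM (TMM-scaled counts, divided by library size), against a lowest SMKO value of 17588, and its summed macrophage genes were at 4907 CPM, against a lowest SMKO value of 1182. The calls and a part of the list medians are therefore also given without SMKO 2.

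The labels number the libraries, and the numbers do not cross the genotypes evenly. Numbers 1 to 4 hold 1 library of each group. Numbers 5 to 8 hold only CTRL and SMKO libraries, and 9 to 12 only ECKO and DKO libraries. What the numbers mark is not given in the sources used here. Within numbers 5 to 12 the number and the endothelial genotype cannot be told apart.

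Efemp2 itself was lower with the endothelial deletion where its level allowed a comparison. The CTRL libraries held 58, 23 and 9 Efemp2 counts and the ECKO libraries 3, 15 and 8. The SMKO libraries held 4, 0 and 0 counts and the DKO libraries none. At 66.7 ± 26.5 CPM (SD, n = 3) in CTRL against 19.9 ± 3.49 CPM (SD, n = 3) in ECKO, those groups did not overlap. The pooled ECKO level was 0.323 times that of CTRL (exact 95% interval 0.2 to 0.504, counting error only). The absence of counts in DKO allows a pooled level of up to 3.34 CPM, and the pooled SMKO level was 5.02 CPM (exact Poisson 95% interval 1.37 to 12.9), so the deletion of endothelial Efemp2 on top of the smooth muscle deletion was not detectable at this depth. An exact two-sided permutation within smooth muscle status, over all 12 libraries, gave p = 0.05, on the threshold and not under it. The zero counts of SMKO 2, SMKO 3 and DKO are tied, so these values could give no smaller p. Only without ties would the smallest p of this design be 0.005. The permutation therefore could not have passed and decides nothing here. Without strata the exact permutation p was 0.383. The fitted averaged log2 fold change was -2.77 ± 0.91 (SE, adjusted p = 0.943), a value that depends on how the zero counts of DKO are handled and is no bound. The exons of Efemp2 overlap those of Mus81 on the opposite strand, and the library kit did not keep strand.

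**Figure D1:**
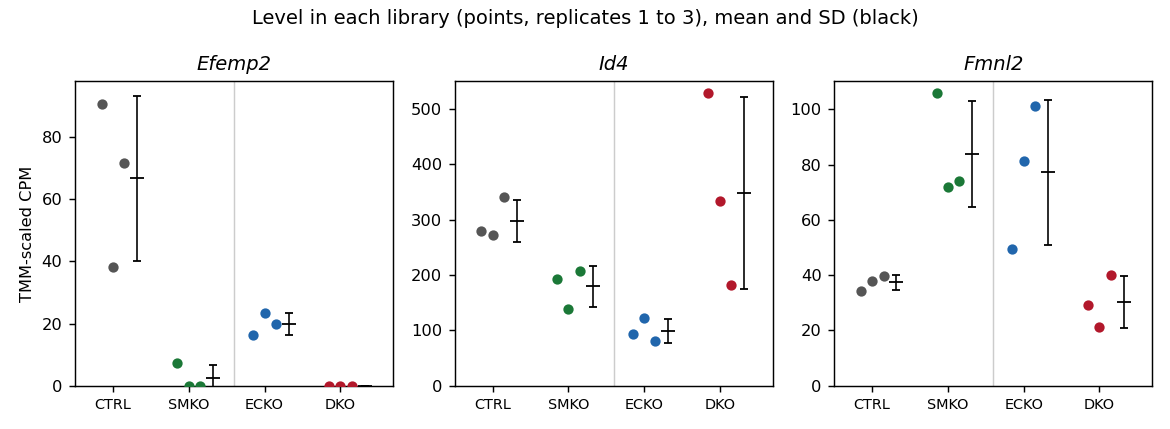
Level of Efemp2, Id4 and Fmnl2 in each of the 12 libraries, in TMM-scaled CPM, with the genotypes on the x axis and the endothelial deletion to the right of the grey line; points are libraries and black bars the mean and SD of 3. Efemp2 was at 0 in all 3 DKO libraries and highest in CTRL, Id4 was lower in ECKO than in CTRL but higher in DKO than in SMKO on average, and Fmnl2 showed the opposite pattern.

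No gene passed the test for the averaged endothelial effect. By the quasi-likelihood F test of edgeR, 0 of 6296 genes (0%) had an adjusted p under 0.05, and the smallest adjusted p was 0.0652, for Nppc. At an unadjusted p under 0.05 there were 313 genes (4.97%), close to the 314.8 that this threshold gives when nothing differs. Of these, 163 (2.59%) were higher and 150 (2.38%) lower with the endothelial deletion. By DESeq2 no gene passed either, with a smallest adjusted p of 0.0502, for Myoc and Dct, and limma-voom passed Nppc alone. The median log2 fold change over all genes was 0.01, and 0.937% of genes exceeded 1 in absolute value. The median 95% interval reached 0.53 on the log2 scale to either side of the estimate. In a typical gene a smaller averaged estimate would thus not reach an unadjusted p under 0.05 with these libraries. A call by adjusted p takes a larger difference than that. Nppc, with a log2 fold change of 1.67 ± 0.32 (SE), was not called.

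The 24 genes of smallest p are described next; none of them passed the test. In 14 of them the mean was higher with the endothelial deletion and in 10 lower, and their adjusted p ran from 0.0652 to 0.943. Since they were picked by this contrast, their direction and size are a description.

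Nppc, which encodes C-type natriuretic peptide, a vasoactive peptide made by endothelial cells, came closest. Its levels were 26.5, 21.5 and 31.8 CPM in CTRL and 10.96, 33.1 and 14.8 CPM in SMKO. They were 27.4, 93.7 and 64.2 CPM in ECKO and 92.9, 51.2 and 57.7 CPM in DKO. Of the 6 libraries with the endothelial deletion 5 lay above all 6 without it, and ECKO 1 lay among the latter. The averaged log2 fold change was 1.67 ± 0.32 (SE; 95% interval 1.02 to 2.32), made of 1.44 for ECKO − CTRL and 1.90 for DKO − SMKO. The counts behind these levels were small, from 1 count in SMKO 3 to 60 in ECKO 2.

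The next genes on the higher side were Ankrd33b, Wwp2, Sphk2, Fgf1 and Ltbp2. Ankrd33b, an ankyrin repeat gene, was at 38.4 to 44.0 CPM in the 3 DKO libraries, 0 to 11.04 in SMKO, 10.96 to 37.5 in ECKO and 10.9 to 15.9 in CTRL. Its averaged log2 fold change was 2.06 ± 0.46 (SE, adjusted p = 0.25), and ECKO 1 again lay at the CTRL level. Wwp2, a ubiquitin ligase, was at 105 to 168 CPM with the endothelial deletion and at 67.8 to 105 CPM without it. Its groups met at 1 point: the highest library without the deletion was SMKO 2, just above the lowest with it, ECKO 2. Its averaged log2 fold change of 0.82 ± 0.19 (SE, adjusted p = 0.25) was made of 0.67 in ECKO − CTRL and 0.98 in DKO − SMKO. Ltbp2, a latent TGF-beta binding protein of elastic microfibrils, was at 302 to 314 CPM in CTRL and 403 to 625 CPM in ECKO. It was at 259, 662 and 236 CPM in SMKO 1, 2 and 3 and at 587 to 919 CPM in DKO. Only SMKO 2 among the 6 libraries without the deletion overlapped those with it, and the averaged log2 fold change was 0.87 ± 0.22 (SE, adjusted p = 0.35). Sphk2, a kinase that makes sphingosine 1-phosphate, had 1.47 ± 0.37, and Fgf1, a fibroblast growth factor, had 1.31 ± 0.33 (both adjusted p = 0.35). Sphk2 shares exon sequence with Dbp and Rpl18 on the opposite strand, so its counts are uncertain.

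On the lower side Cd36, Myoc and Dct came first, and each owed its average mostly to 1 of the 2 backgrounds. Cd36, a scavenger receptor and fatty acid transporter, was at 4.89, 21.3 and 8.88 CPM in DKO against 82.2, 49.7 and 29.5 CPM in SMKO. In ECKO it was at 43.8 to 69.2 CPM and in CTRL at 55.7 to 81.1 CPM, which overlap. Its log2 fold change was -2.18 in DKO − SMKO and -0.31 in ECKO − CTRL, with an average of -1.25 ± 0.28 (SE, adjusted p = 0.25). Myoc, which encodes the secreted glycoprotein myocilin, was at 24.4 to 40.5 CPM in DKO and 55.2 to 285 CPM in SMKO, with -2.56 in DKO − SMKO and -0.23 in ECKO − CTRL. Its exons overlap those of Myocos on the opposite strand. Dct, a melanin synthesis enzyme, had the opposite arrangement. It was at 25.0 to 49.4 CPM in ECKO against 79.5 to 324 CPM in CTRL, without overlap, and at 160 to 342 CPM in DKO against 192 to 331 CPM in SMKO. Its log2 fold change was -2.47 in ECKO − CTRL and -0.44 in DKO − SMKO. The difference between the 2 backgrounds did not pass the test for Cd36 (adjusted p = 0.627), Myoc (adjusted p = 0.607) or Dct (adjusted p = 0.63).

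**Figure D2:**
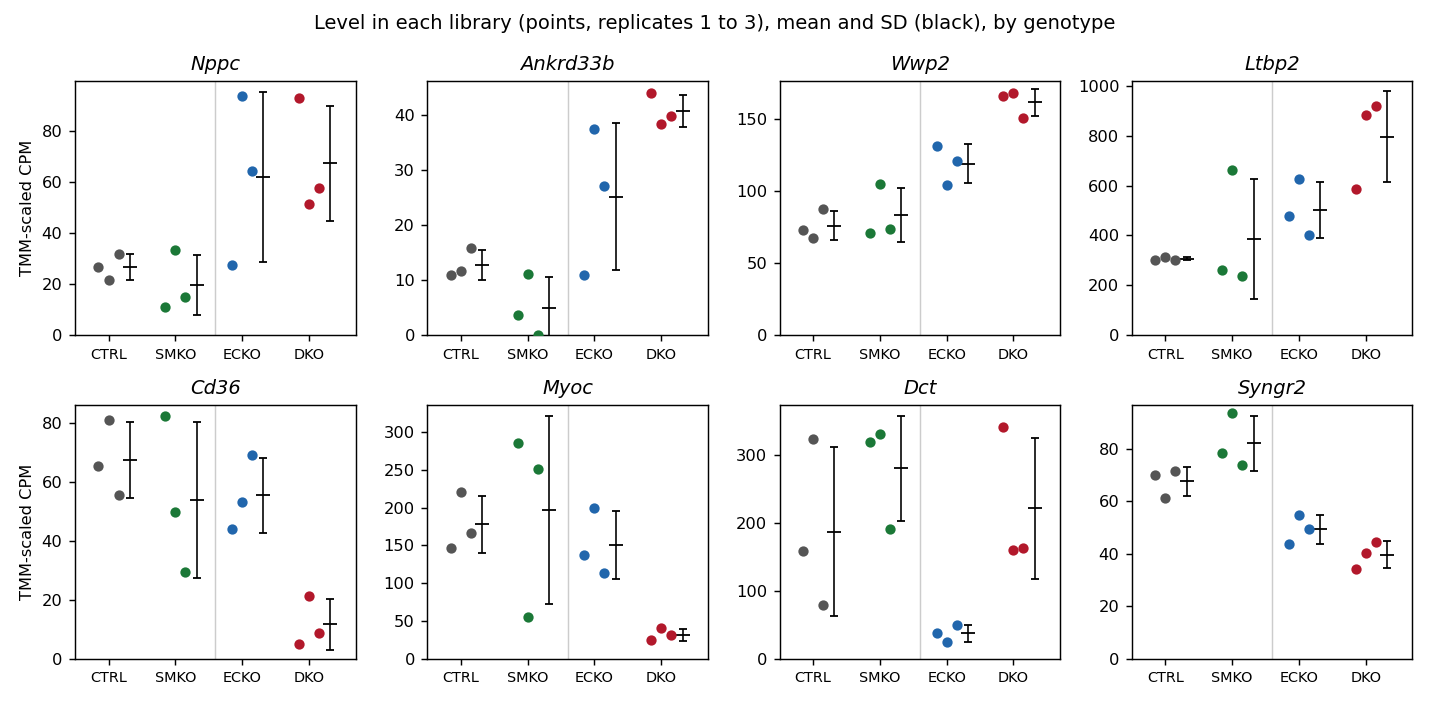
Level of 8 genes in each library in TMM-scaled CPM (linear axes from 0), by genotype, with the endothelial deletion to the right of the grey line; points are libraries and black bars the mean and SD of 3, cut at 0. Wwp2 was higher with the deletion in both backgrounds, and so was Ltbp2 except for 1 SMKO library. Cd36 and Myoc were lowest in DKO, Dct was lowest in ECKO, and the groups of 6 do not overlap for Syngr2.

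The other 15 genes had larger p-values. Higher on average were Cdc42ep3, a Cdc42 effector (0.77), Hyou1, a chaperone of the endoplasmic reticulum (1.07), Hk1, a hexokinase (0.70), Cilp2, a matrix protein of cartilage type (0.86), and Nr4a2, an orphan nuclear receptor (0.77). Plod2, which hydroxylates collagen lysines in the telopeptides, had 0.62, LTO1 had 0.61, and Txndc11, a thioredoxin domain protein, had 0.82. Lower on average were Ssbp2 (-1.02), Bmyc (-0.99), Dsel, a dermatan sulfate epimerase homologue (-0.88), Gata3, a transcription factor (-1.22), Dsp, which encodes the desmosome protein desmoplakin (-1.003), Abcc9, a regulatory subunit of potassium channels (-0.57), and the synaptogyrin Syngr2 (-0.72). These are averaged log2 fold changes. Exons of LTO1, Txndc11, Gata3 and Syngr2 overlap those of another gene, on the same strand for Gata3 and Syngr2.

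The 6 libraries with the deletion did not overlap the 6 without it for 8 of the 6296 genes (0.127%), 1 of them higher (0.0159%) and 7 lower (0.111%), among which Syngr2 was the 1 member of the 24. Syngr2 was at 43.8, 54.7 and 49.4 CPM in ECKO and 34.2, 40.5 and 44.4 CPM in DKO. Without the deletion it was at 61.2 to 71.6 CPM in CTRL and 73.9 to 93.8 CPM in SMKO. Its averaged log2 fold change was -0.72 ± 0.22 (SE, adjusted p = 0.841).

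The 2 effects that make up the average were then set side by side; they share no library. ECKO − CTRL had 0 called genes (0%; 270 at an unadjusted p under 0.05, or 4.29%), with a smallest adjusted p of 0.118, for Id4. DKO − SMKO had 0 called genes (0%; 397 at an unadjusted p under 0.05, or 6.31%), with a smallest adjusted p of 0.235. Across the 6296 genes, which are not independent, the log2 fold changes had a Pearson r of -0.02 and a Spearman rho of -0.05, and 3031 genes (48.1%) had the same sign in both. Genes with an unadjusted p under 0.05 in ECKO − CTRL had the same sign in DKO − SMKO in 45.9% of cases. An unadjusted p under 0.05 in both effects was found for 24 genes, 12 with the same sign and 12 with opposite signs. The 12 of the same sign were 4.44% of the ECKO − CTRL genes and 3.02% of the DKO − SMKO genes. Higher in both were Nppc, Ankrd33b, Wwp2, Sphk2, Fgf1, Ltbp2 and the stress transcription factor Atf5. Lower in both by the fit were Dsel, Gata3, Abcc9, Dsp and Efemp2. For Efemp2 the DKO − SMKO part rests on 4 counts in SMKO 1 against 0 in SMKO 2, SMKO 3 and DKO. Its pooled DKO / SMKO ratio had an exact 95% interval of 0 to 1.34 (counting error only), so no fall was shown there.

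**Figure D3:**
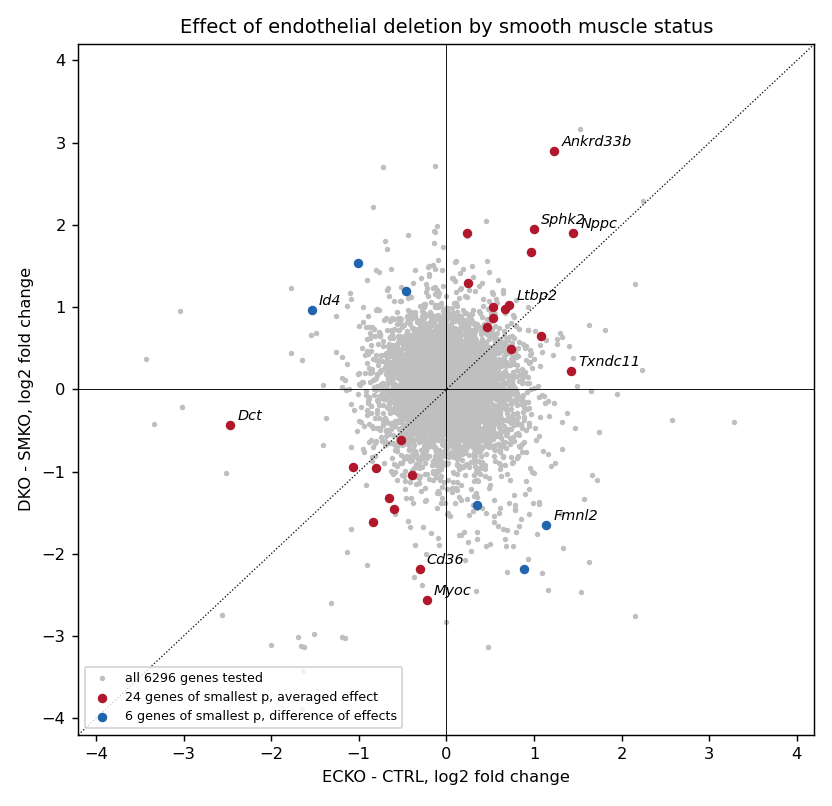
Log2 fold change of each of the 6296 genes tested for ECKO − CTRL (x axis) and DKO − SMKO (y axis), with the 24 genes of smallest p for the average in red and the 6 of smallest p for the difference in blue; the dotted line marks equal effects and 5 genes lie outside the axes. The grey cloud has no slope (Pearson r of -0.02), Nppc, Wwp2 and Ltbp2 lie near the line, Cd36, Myoc and Dct lie near an axis, and Id4 and Fmnl2 lie in opposite quadrants off the line.

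A direct test of the difference, (DKO − SMKO) − (ECKO − CTRL), passed 2 of 6296 genes (0.0318%). Id4, an inhibitor of basic helix-loop-helix transcription factors, was at 279, 273 and 342 CPM in CTRL and at 93.2, 123 and 81.5 CPM in ECKO. It was at 194, 138 and 207 CPM in SMKO and at 528, 335 and 182 CPM in DKO. ECKO lay wholly below CTRL, while DKO 3 overlapped SMKO. Its log2 fold change was -1.54 in ECKO − CTRL and 0.96 in DKO − SMKO, a difference of 2.50 ± 0.43 (SE, adjusted p = 0.0104), and the average of the 2 was -0.29 ± 0.21 (SE, adjusted p = 0.999). Fmnl2, a formin that drives actin filament growth, went the other way. It was at 34.3 to 39.8 CPM in CTRL against 49.3 to 101 CPM in ECKO, and at 71.8 to 106 CPM in SMKO against 21.3 to 39.9 CPM in DKO. Neither pair overlapped. The difference was -2.79 ± 0.49 (SE, adjusted p = 0.0104), from 1.14 and -1.65, and the average was -0.26 ± 0.25 (SE, adjusted p = 0.999). The next 4 genes did not pass: Tnxb, a tenascin of elastic tissue, had -3.07 (adjusted p = 0.56), and Sash1 had 1.67, Ogn, a small leucine-rich proteoglycan, -1.76, and Prxl2a 2.54 (each adjusted p = 0.607).

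The calls for Id4 and Fmnl2 depended on single libraries. Leaving out 1 library at a time gave 0 to 57 called genes for the difference, with 0 in each of 4 fits: without ECKO 3, SMKO 1, DKO 1 or DKO 2. With library numbers 5 to 12 alone, 0 genes passed. Without the 3 libraries with Y-linked counts, Id4 passed and Fmnl2 did not. Id4 kept its sign in each setting tried, with differences from 2.08 to 2.82, and Fmnl2 had -3.03 to -2.48.

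The averaged effect was also compared within the library number sets, as the difference of mean log2 CPM. Over all genes the values from numbers 1 to 4 and from numbers 5 to 12 had the same sign in 51.6% and a Pearson r of -0.09, although both sets hold libraries of all 4 genotypes. Of the 24 genes of smallest p, 23 had the same sign in numbers 1 to 4 and all 24 in numbers 5 to 12; the contrast that picked them used both sets. Nppc had 1.42 in numbers 1 to 4 and 1.33 in 5 to 12, and Ltbp2 had 0.91 and 0.94. Gata3 had -2.11 and -0.32, Cd36 -2.01 and -0.72, and Cilp2 -0.20 and 1.22, so that Cilp2 pointed opposite ways. The mitochondrially encoded genes show how far the sets could part. All 13 were lower on average with the endothelial deletion (median log2 fold change -0.31), with a median of 0.96 in numbers 1 to 4 and -0.81 in 5 to 12. With the sets as a term in the model no gene passed, and Nppc had an adjusted p of 0.999. That fit split numbers 5 to 12 into a set of CTRL and SMKO libraries and a set of ECKO and DKO libraries. Its averaged contrast therefore rests on numbers 1 to 4, with 1 library per group.

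**Figure D4:**
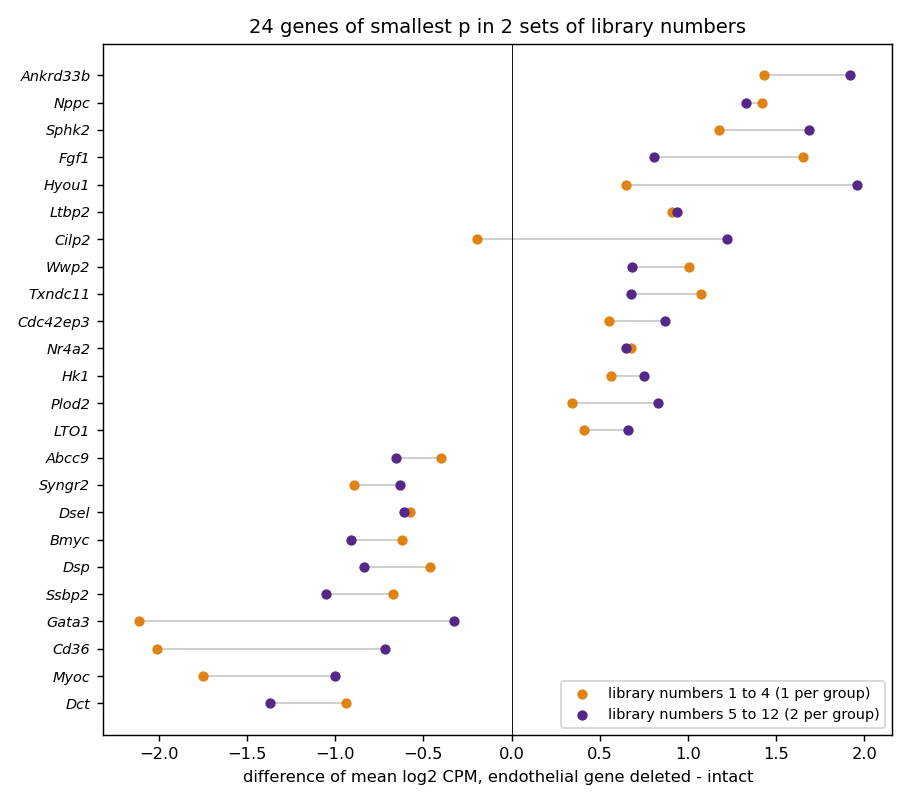
Difference of mean log2 CPM, endothelial deletion minus none, for the 24 genes of smallest p, in library numbers 1 to 4 (orange, 1 library per group) and 5 to 12 (purple, 2 per group). In 23 of 24 genes both points lie on the same side of 0, and Cilp2 has -0.20 and 1.22.

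Gene lists for the tissue were read next by their counts and medians. Of the 41 lists, those other than the sex-linked list held 557 genes, of which 392 passed the count filter. None was called, and 42 (10.7%) had an unadjusted p under 0.05, against 4.97% over all genes tested. The lists share members and were chosen with earlier results of these data known, so this share is a description.

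Genes that define the endothelium were near balance. Of 20 endothelial identity genes 18 were tested, 6 with a higher and 12 with a lower mean, and the median log2 fold change was -0.06. The median was 0.33 in ECKO − CTRL and -0.19 in DKO − SMKO. The summed level of the list was 3459 to 4230 CPM with the deletion and 3242 to 4609 CPM without it. Tek, the angiopoietin receptor, had 0.42 ± 0.20 (unadjusted p = 0.0436). Vwf, the von Willebrand factor, had 0.70 ± 0.33, and Cdh5, the cadherin of endothelial junctions, had -0.47 ± 0.24. The valve and lymphatic endothelial list, with 12 of 17 tested, had a median of -0.13 and 8 lower means. Foxc2, a forkhead factor needed for lymphatic valves, had -0.73 ± 0.27 (unadjusted p = 0.0119), Prox1, which sets lymphatic identity, had -0.73 ± 0.36, and Hapln1, a hyaluronan link protein, had -0.42 ± 0.28. For Prox1 the average joined 0.35 in ECKO − CTRL and -1.82 in DKO − SMKO.

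In the Notch pathway 3 members, all lower, had an unadjusted p under 0.05. Notch receptors carry signals between neighbouring cells, and Notch1 is known to restrain mineralization of the valve. Of 17 members 10 were tested, 7 were lower, and the median was -0.23. The receptor Notch2 had -0.56 ± 0.20, with -0.56 in ECKO − CTRL and -0.57 in DKO − SMKO. Notch2 was at 124 to 137 CPM in ECKO against 159 to 237 CPM in CTRL, without overlap, and at 57.7 to 132 CPM in DKO against 88.6 to 199 CPM in SMKO, which overlap. The receptor Notch1 had -0.59 ± 0.21, made of -0.07 and -1.10, and the coactivator Maml2 had -0.63 ± 0.28. Each of the 3 had an adjusted p of 0.943.

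In the shear-responsive and Wnt list, 16 of 20 were tested and the median was 0.09. Wnt9b, a Wnt ligand of valve endothelium, had 0.55 ± 0.19, with 0.57 in ECKO − CTRL and 0.53 in DKO − SMKO (adjusted p = 0.943 for the average). The Wnt receptor Fzd4 had -0.73 ± 0.36 and the Wnt transcription factor Tcf7l2 -0.51 ± 0.32. The BMP and Id list, with 16 of 19 tested, had 11 lower means and a median of -0.21. The receptor Bmpr2 had -0.41 ± 0.18 (unadjusted p = 0.0281) and the signal transducer Smad1 had -0.40 ± 0.29. In the list of mechanosensitive channels and sphingolipid signalling, 10 of 15 were tested, with a median of 0.27. Besides Sphk2, the calcium channel Trpv4 had 0.86 ± 0.36 and S1pr2, a receptor of sphingosine 1-phosphate, had 0.60 ± 0.27, while Sgpl1, the lyase that degrades it, had -0.41 ± 0.20. In the renin-angiotensin and natriuretic list 6 of 13 were tested, with a median of 0.18. After Nppc, the endothelin receptor Ednrb had -0.59 ± 0.27 and the endothelial nitric oxide synthase Nos3 had 0.24 ± 0.20, whose exons overlap those of Atg9b on the opposite strand.

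Collagen genes had higher means almost throughout, and none passed the test; over all genes tested 51% had a higher mean. All 7 fibrillar collagen chains tested of 11 were higher with the deletion, with a median of 0.38 and a range of 0.32 to 0.58, against a median of 0.01 over all genes. The medians were 0.39 in ECKO − CTRL and 0.43 in DKO − SMKO. Col1a1, the main chain of type I collagen, was at 1856 to 2767 CPM in ECKO, 2975 to 4782 in DKO, 1050 to 2242 in CTRL and 1505 to 4096 in SMKO. These groups overlap, and its averaged log2 fold change was 0.58 ± 0.27 (SE, unadjusted p = 0.0409, adjusted p = 0.943). Its partner Col1a2 had 0.46 ± 0.24 and Col5a1, which nucleates fibrils, had 0.46 ± 0.19. Of 9 other interstitial collagens all were tested and 7 were higher, with a median of 0.37. In it Col6a1, a beaded filament chain, had 0.50 ± 0.22, Col8a2 0.45 ± 0.20 and Col16a1 0.43 ± 0.22. All 18 genes of collagen folding and modification were tested, and 17 were higher, with a median of 0.31. Besides Plod2, the procollagen N-proteinase Adamts2 had 0.41 ± 0.18 and the prolyl hydroxylase P3h1 0.49 ± 0.22.

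**Figure D5:**
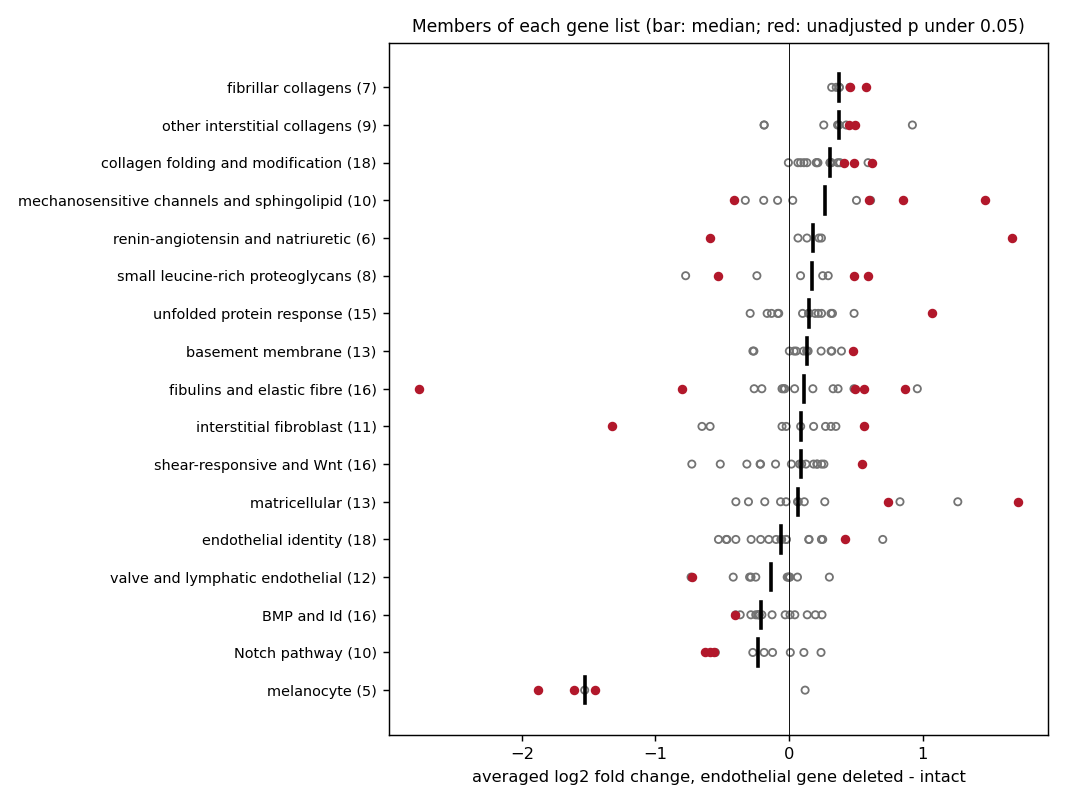
Averaged log2 fold change, endothelial deletion minus none, of each tested member (circles) of 17 gene lists, with the number tested in brackets; bars are list medians and red circles have an unadjusted p under 0.05. All 7 fibrillar collagens and 17 of 18 collagen folding genes lie above 0, and 7 of 10 Notch pathway genes lie below it.

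Other matrix lists were mixed. Of 19 fibulin and elastic fibre genes 16 were tested, 9 with higher means, and the median was 0.11. Eln, which encodes elastin, had 0.56 ± 0.21 and the lysyl oxidase Loxl2 had 0.49 ± 0.22 (both adjusted p = 0.943). Of the fibulin relatives of Efemp2, Efemp1 had -0.80 ± 0.27, with -0.25 in ECKO − CTRL and -1.36 in DKO − SMKO. Fbln5, which also serves elastic fibre assembly, had 0.49 ± 0.24, and Fbln1 and Fbln2 had 0.04 ± 0.21 and -0.04 ± 0.19. In the basement membrane list 13 of 15 were tested and 11 were higher, with a median of 0.13. Its examples were the network collagen Col4a1 (0.48 ± 0.20), which shares exon sequence with Col4a2 on the opposite strand, the laminin Lamb2 (0.32 ± 0.19) and nephronectin, Npnt (0.39 ± 0.27). The small leucine-rich proteoglycans, with 8 of 11 tested, had a median of 0.17. Fmod, which binds collagen fibrils, had 0.49 ± 0.21, Chad 0.59 ± 0.28 and Ogn -0.53 ± 0.23. In the matricellular list 13 of 16 were tested, with a median of 0.07 that became 0.50 without SMKO 2, the library with 89426 CPM of these genes against 17588 and 18656 in the other SMKO libraries. Ccn2, the connective tissue growth factor, had 0.74 ± 0.26, made of -0.09 in ECKO − CTRL and 1.57 in DKO − SMKO, and Tnc, which encodes tenascin-C, had 1.72 ± 0.76. Ccn5 had 0.83 ± 0.47. The unfolded protein response list, with 15 of 17 tested, had a median of 0.15. After Hyou1, its chaperones Dnajb11 and Hspa5 had 0.49 ± 0.24 and 0.33 ± 0.20.

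Of the interstitial fibroblast list 11 of 16 were tested, with a median of 0.09. Igfbp5, a binding protein of insulin-like growth factors, had -1.32 ± 0.48, the surface protein Thy1 0.56 ± 0.24 and the receptor Pdgfra -0.59 ± 0.30. The summed level of this list ran from 9203 to 15732 CPM with the deletion and from 9099 to 12515 CPM without it. Apart from the melanocyte list, which follows, the remaining lists with at least 5 tested members had medians between -0.31 and 0.36. Of 13 tested genes of the endothelial-to-mesenchymal transition and 18 of the TGF-beta pathway, none had an unadjusted p under 0.05, and their medians were -0.09 and -0.01.

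Markers of other cells were read in the same way. The melanocyte list, with 5 of 10 tested, had a median log2 fold change of -1.53, which was -3.02 in ECKO − CTRL and -0.21 in DKO − SMKO. Pigment cells are found in mouse heart valves. Tyrp1, a melanin enzyme, had -1.88 ± 0.64, and Pmel, a melanosome protein, -1.61 ± 0.62. The exons of Pmel overlap those of Cdk2 and Dgka on the opposite strand. The summed level of the list was 78 to 124 CPM in ECKO, 439 to 1017 in DKO, 246 to 771 in CTRL and 222 to 1121 in SMKO, so ECKO stood apart and DKO did not. Macrophage genes were lower in 13 of 15, with a median of -0.26 and summed levels of 1112 to 2943 CPM with the deletion and 1182 to 4907 CPM without it. Their median was 0.36 in library numbers 1 to 4 and -0.41 in numbers 5 to 12. Defining lymphocyte markers were at or near 0, at most 15.9 CPM in sum in any library. Erythroid genes ran from 44 to 5951 CPM with the deletion and from 217 to 3665 CPM without it. Heart muscle genes summed to 1099 CPM in ECKO 2 and to at most 127 CPM in the other 11 libraries. ECKO 2 was also the library with the highest erythroid sum and the highest Nppc level, and without it the averaged log2 fold change of Nppc was 1.44 (adjusted p = 0.626). The p-value of Nppc depended on other libraries as well. Without SMKO 1 no gene, Nppc included, had an adjusted p under 0.999. Over all settings tried its averaged log2 fold change ran from 1.33 to 1.94. The part of these cells in the gene values above was not tested.

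The number of called genes in the averaged contrast was highest, among the fits that left out 1 library, without SMKO 2. Then 37 of 6296 genes (0.588%) passed, 25 higher (0.397%) and 12 lower (0.191%) with the endothelial deletion. DKO − SMKO then had 110 called genes (1.75%) and the difference between the 2 effects 57 (0.905%). For 36 of the 37 genes SMKO 2 lay beyond the other SMKO libraries on the side of DKO. All 37 had the larger effect in DKO − SMKO, 36 were called there, and 12 had an unadjusted p under 0.05 in ECKO − CTRL. The signs of both effects matched for 30, and 17 of the 37 were also called for the difference. In this fit SMKO has 2 libraries, and the spread is shared over all groups. Leaving out CTRL 3 or ECKO 1 instead gave 1 called gene, Dct and Nppc respectively, and leaving out any of the other 9 gave 0.

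The genes named here from the 37 were chosen after their values were seen, and SMKO 2 itself stands apart by its matricellular level. Without SMKO 2 the averaged log2 fold change was 2.17 for Col8a1, a short-chain collagen, 1.29 for Sparc, a collagen-binding protein, 1.18 for Ltbp2, 0.82 for Eln, 0.82 for Loxl2 and 0.86 for Col1a1. It was 1.51 for Serpine2, a protease inhibitor, 1.27 for the metalloproteinase inhibitor Timp1, 1.08 for Ccn2 and 1.94 for Nppc. Of the list genes tested, 2 of 7 fibrillar collagens, 3 of 9 other interstitial collagens, 2 of 13 basement membrane genes and 1 of 18 collagen folding genes were called higher. Over all genes tested the share called higher was 0.397%. SMKO 2 had the highest summed level of each of these lists among the SMKO libraries. Its fibrillar collagens were at 12961 CPM, against 6943 in SMKO 1 and 6913 in SMKO 3. Leaving it out therefore raises DKO − SMKO for such genes, and these calls are a description. The fibulin and elastic fibre list had 3 called higher and Efemp1 called lower. On the lower side were Igf2, an insulin-like growth factor (-2.61), Igfbp5 (-1.60), Myoc (-1.63), Enpp2, which makes lysophosphatidic acid (-1.24), Cd36 (-1.33) and Pdgfra (-0.83). For Igf2, whose exons overlap a gene model on the same strand, the value was 0.06 in ECKO − CTRL and -5.27 in DKO − SMKO. For Ltbp2 it was 0.72 and 1.64, and for Nppc 1.46 and 2.42. No gene of the endothelial identity or Notch lists was called without SMKO 2.

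List medians of the averaged contrast also moved without SMKO 2. Besides the matricellular list, larger moves were from 0.27 to 0.47 for endothelial activation and adhesion and from 0.36 to 0.56 for cartilage and mineralization. The median went from 0.19 to 0.39 for metalloproteinases and their inhibitors and from 0.37 to 0.53 for other interstitial collagens. The basement membrane median went from 0.13 to 0.27, that of the fibulin and elastic fibre list from 0.11 to 0.20 and that of the small leucine-rich proteoglycans from 0.17 to 0.34. It went from 0.15 to 0.30 for the unfolded protein response, from 0.09 to 0.20 for interstitial fibroblast genes and from -0.26 to -0.13 for macrophage genes. The Notch median went from -0.23 to -0.35, the valve and lymphatic endothelial median from -0.13 to -0.21 and the median of the endothelial-to-mesenchymal transition from -0.09 to 0.03. The TGF-beta median went from -0.01 to -0.05. Fibrillar collagens (0.38 and 0.47), collagen folding genes (0.31 and 0.33) and endothelial identity genes (-0.06 and -0.08) differed less between the fits.

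Last, the averaged endothelial effect was set against the averaged smooth muscle effect, (SMKO + DKO)/2 − (CTRL + ECKO)/2. The smooth muscle average had 13 called genes (0.206%). The 2 averages share all 12 libraries. Their difference equals ECKO − SMKO, and there 0 of 6296 genes (0%; 243 at an unadjusted p under 0.05, or 3.86%) passed, with a smallest adjusted p of 0.175, for Dct. Nppc had 1.67 for the endothelial and -0.32 for the smooth muscle average, and the difference had an adjusted p of 0.819. Eln had 0.56 and 0.99, Wnt9b 0.55 and 1.27, Trpv4 0.86 and 1.96, and Col4a1 0.48 and 0.91, for the endothelial and the smooth muscle average in that order; these 4 were called for the smooth muscle average. LTO1, among the 24 genes of smallest p, had 0.61 and 1.13 and was called for the smooth muscle average (F test, adjusted p = 0.0039). Efemp2 had -2.77 and -4.80 and was called there too (adjusted p = 9.1e-04), with both values subject to the zero counts of DKO. Since none passed for the difference, no gene was shown to respond to one averaged deletion more than to the other.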

How the data were processed

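Per the labels' protocols, amplified cDNA of microdissected leaflets was tagmented with the Nextera XT kit, which keeps no strand, and sequenced on a MiSeq with paired reads of 75 bases. The authors deposited 1 table of 41709 genes with whole-number total counts per library, per the file headers; every test started from these counts. The deposited TPM values, and the fold changes and p-values of the authors' own comparisons, were not used. The submitters' processing notes name GRCm39 as the build; which aligner, counter and annotation were used is not given in the sources used here. Exon overlaps of the named genes were read by gene identifier from an older mouse build, so no positions are printed. Only overlaps with other protein-coding genes were looked for.

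Genes were kept by edgeR's filterByExpr (a minimum of 10 counts after allowing for depth, in 3 or more libraries), which left 6296 genes with 93.1% of counts. TMM scaling (trimmed mean of M values) was applied, and 1 model with a mean per group and 8 residual degrees of freedom was fitted by quasi-likelihood (edgeR 4.0.16 in R 4.3.3). P-values were adjusted by Benjamini-Hochberg over the 6296 genes, and a call is an adjusted p under 0.05. CPM are counts per TMM-scaled library size, on the usual scale. The biological coefficient of variation was 0.246. Libraries of a group differed by more than sampling noise (chi-square per degree of freedom 1.85 to 9.64). Intervals and floors (3 counts for a group at 0) cover counting error only, since PCR copies are not independent molecules.

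Named genes were the called genes or, with fewer than 24, the 24 of smallest p, the 3 members of smallest p per list, the 6 of smallest p for the difference, Efemp2 and its relatives; other list members named had an unadjusted p under 0.05. The contrast, members and lists were chosen with earlier results of these data known. Alternatives were DESeq2 1.42.0, limma-voom (limma 3.58.1), RLE size factors, other filters, covariates, a replicate block and libraries left out. The pipeline was tested on simulated data.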

Additional observations from a re-analysis of the deposited data

Results flagged for a closer look

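For 2 genes the effect of the endothelial deletion differed between the smooth muscle backgrounds by a test of the difference itself, edgeR's quasi-likelihood F test of (DKO − SMKO) − (ECKO − CTRL). Id4 had a difference of 2.50 on the log2 scale (adjusted p = 0.0104): ECKO was lower than CTRL in 3 of 3 libraries, while DKO was higher than SMKO on average with 1 library overlapping. Fmnl2 had a difference of -2.79 (adjusted p = 0.0104), with ECKO above CTRL and DKO below SMKO in every library. The averaged contrast gives -0.29 and -0.26 for these genes.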

How the results depend on the processing

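The absence of called genes for the average held under RLE size factors, a stricter filter, the covariates, the library number sets as a term, the additive model and DESeq2, but not under each setting. With no low-count filter 26 genes passed for the average, of which 12 lay outside the 6296 and had 21 to 63 counts in all; the other contrasts then had 15 (ECKO − CTRL), 32 (DKO − SMKO), 28 (difference) and 16 (ECKO − SMKO). Limma-voom passed 1 for the average. DESeq2 passed 2 for ECKO − CTRL, 3 for DKO − SMKO, 1 for the difference and 2 for ECKO − SMKO. With the mitochondrially encoded share as a covariate DKO − SMKO had 1. The difference had 0 with library numbers 5 to 12 alone and 1 without the libraries with Y-linked counts. Leaving out 1 library at a time gave 0 to 37 for the average (37 without SMKO 2, 1 without CTRL 3 or ECKO 1), 0 to 2 for ECKO − CTRL, 0 to 110 for DKO − SMKO (110 without SMKO 2), 0 to 57 for the difference and 0 to 1 for ECKO − SMKO. The cause was not tested.

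Of 72 named genes under the alternatives (1786 values), 14 values reversed sign. With the library number sets as a term these were Cilp2 (-0.20), Fbln1 (-0.25), Fbln2 (0.0596), Tcf7l2 (0.32), Id4 averaged (0.0673) and Chad (-0.25). With single libraries left out, Fbln1 ranged from -0.0825 (without SMKO 2) to 0.27, Fbln2 from -0.13 to 0.15 (without SMKO 2) and Hapln1 from -0.55 to 0.24 (without SMKO 1). Hapln1 had 0.20 with library numbers 5 to 12 and 0.28 without the libraries with Y-linked counts.

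The replicate numbers were not treated as pairing: no label says that they mark a shared source, and 5 of 18 same-numbered pairs correlated over 0.1, although 8 of 12 libraries correlated best with their own number, a hint from the data. With the replicate block 0 genes passed for the average (smallest adjusted p = 0.255). The median standard error of an averaged effect was 0.259 on the log2 scale; the parts of depth and of the spread between libraries in it were not tested.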

Other observations

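The genes whose 6 libraries with the endothelial deletion did not overlap the 6 without it were, besides Syngr2, 6 lower and 1 higher, chosen here after their values were seen. Gstm1, a glutathione transferase, was at 309 to 553 CPM with the deletion and 557 to 783 CPM without it, a log2 fold change of -0.52 ± 0.19 (SE, adjusted p = 0.943). Sec14l1 was at 103 to 153 CPM against 160 to 207 CPM. Ccnt1, a cyclin of transcription elongation, was at 35.5 to 59.7 CPM against 60.8 to 133 CPM. The metalloproteinase Adam19 was at 14.9 to 29.6 CPM against 31.2 to 88.6 CPM, the nucleotide receptor P2ry1 at 5.48 to 29.6 CPM against 31.8 to 59.1 CPM, and Cyp4v3, whose exons overlap a gene model on the same strand, at 19.2 to 38.4 CPM against 38.6 to 57.9 CPM. The histone gene H2aj was higher, at 42.0 to 62.1 CPM against 15.9 to 39.0 CPM. None of them passed the averaged test.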
